A study of Homo sapiens with 6 samples.

Results

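The genes described here are 10 that encode subunits of the Polycomb repressive complexes: EZH1, EZH2, EED, SUZ12, JARID2, MTF2, PHF19, RING1, RNF2 and BMI1. They were listed by name, a rule that uses no measured value, though the list was chosen with earlier results of these data known. They are 10 of the 57820 genes in the deposited tables. For 9 of them the row was found by gene symbol. JARID2 was found by its Ensembl identifier, ENSG00000008083, because the symbol in its row was damaged. All 10 passed the filter on low counts, among 14044 genes that did.

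Polycomb proteins keep genes silent through modifications of histones. Polycomb repressive complex 2 (PRC2) methylates histone H3 at lysine 27, with EZH2 or EZH1 as the catalytic subunit and EED and SUZ12 as the core that the enzyme needs. MTF2, PHF19 and JARID2 are accessory subunits that help bring PRC2 to chromatin. Polycomb repressive complex 1 (PRC1) ubiquitinates histone H2A through RNF2 or RING1, each paired with a PCGF protein such as BMI1. In B cells, EZH2 is known for its high level in dividing progenitors and germinal center cells.

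Total RNA of SEM cells, a human B-cell acute lymphoblastic leukemia line, was sequenced after removal of ribosomal RNA in 3 CTCF-WT and 3 CTCF-dRBR libraries. Both groups carried a miniAID-mClover3 tag on endogenous CTCF and OsTIR1(F74G), so that the ligand 5-Ph-IAA degrades the tagged protein, and both received 5-Ph-IAA for 24 h with doxycycline at 1 µg/mL for the last 18 h. Doxycycline induced HA-tagged CTCF without its RNA-binding region (the TRE3G-HA-CTCF-dRBR transgene) in CTCF-dRBR and HA-tagged wild-type CTCF in CTCF-WT, where the labels give no transgene and the methods name it. The comparison asks how expression differs between cells with CTCF that lacks this region and cells with the wild-type protein; whether the libraries of a group came from separate cultures is not stated, so p-values measure only the spread between these libraries.

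Total expected counts ranged from 51732177 to 53166735 in CTCF-WT and from 30034505 to 50457168 in CTCF-dRBR. CTCF-dRBR replicate 1 had the lowest total and stood apart from the rest, with Spearman's rho of 0.913 to 0.968 against the other libraries, where the other pairs had 0.971 to 0.997. CTCF itself, whose reads can come from the endogenous gene or the transgene, had a log2 fold change of 0.24 ± 0.10 (SE) in CTCF-dRBR against CTCF-WT (limma-voom, adjusted p = 0.202). All 8 B-lineage markers were detected, and their summed TPM was 259 to 379 in CTCF-WT and 292 to 461 in CTCF-dRBR. Protein-coding genes held 30.2% to 63.2% of the TPM of a library, so these sums cannot show a difference between the groups. By limma-voom, 2 of the 8 markers had a positive and 6 a negative log2 fold change, with a median of -0.25. Of the markers of other cells, 4 of 5 T-cell, 3 of 5 myeloid, 4 of 4 erythroid and 3 of 4 stromal genes stayed under 1 TPM in every library. TRAC, LYZ, CSF1R and PDGFRB were above it. CD3D, ELANE, HBA1 and ALAS2 were listed at 0 throughout.

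None of the 10 Polycomb genes passed a false discovery rate (FDR) of 0.05 by limma-voom with Benjamini-Hochberg adjustment over all 14044 genes, where 0 genes passed in either direction (0% higher and 0% lower). The smallest adjusted p of any gene was 0.0959. At an unadjusted p under 0.05, MTF2 was higher and RING1 lower in CTCF-dRBR, which makes 1 of 10 members in each direction against 12.6% of all genes for higher and 12.8% for lower. Neither gene stayed under this threshold when replicate 1 or 2 of CTCF-WT or replicate 2 of CTCF-dRBR was left out, where the unadjusted p was 0.0577 to 0.0731 for MTF2 and 0.0590 to 0.0826 for RING1 by limma-voom. edgeR's quasi-likelihood test put 3 members under this unadjusted threshold, against 24.6% of all genes, and 0 past FDR 0.05. DESeq2 put 4 members under it, against 30.3% of all genes, and 0 past FDR 0.05, where it passed 5.38% of all genes as higher and 6.14% as lower. Without CTCF-dRBR replicate 1, limma-voom put 4 members under the unadjusted threshold, against 30.4% of all genes, and 0 past FDR 0.05, against 1.52% higher and 2.37% lower. The 10 log2 fold changes ran from -0.67 for RING1 to 0.46 for RNF2. Their median was 0.14, and 8 of 10 were positive, beside a median of -0.01 and 49.4% positive over all genes tested. With bulk RNA, fewer cells that express a gene and less RNA of it per cell cannot be told apart.

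In length-normalized level, TPM rescaled to the same total over protein-coding genes in each library, the Polycomb genes spanned a wide range. The 3 highest were EZH2, MTF2 and BMI1, and their order differed between the groups. In CTCF-WT the means were 88.4 for EZH2, 80.2 for MTF2 and 76.1 for BMI1, and in CTCF-dRBR they were 142 for BMI1, 118 for MTF2 and 106 for EZH2. Over the 6 libraries BMI1 was first at 109, but without CTCF-dRBR replicate 1 its mean of 87.3 lay below EZH2 at 95.2 and MTF2 at 91.5. Over the 6 libraries SUZ12 had a mean of 83.2, PHF19 55.6, RNF2 47, EZH1 40.1, EED 39.2, RING1 22 and JARID2 13.5. By this mean RING1 was at the level of the median protein-coding gene tested, 21.9, and JARID2 was below it. The mean of RING1 was 26.2 in CTCF-WT and 17.7 in CTCF-dRBR, on either side of that median. BMI1 was above MTF2 in 3 of 6 libraries, 1 of CTCF-WT and 2 of CTCF-dRBR, and MTF2 was above EZH2 in 2, both of CTCF-dRBR, so that the ranges of these neighbors overlapped. EZH1 was below EED in all 3 CTCF-WT libraries and above it in all 3 CTCF-dRBR libraries. EED was above RING1 in 6 of 6 libraries. BMI1 spread most widely, from 58.9 to 217.

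On this rescaled TPM the groups did not overlap for 4 members with CTCF-dRBR above, EZH1, EZH2, EED and MTF2, and for 1 below, RING1, against 24% and 10.6% of all genes. EZH1 had 33.4, 32.2 and 36.2 in CTCF-WT and 47.5, 48.7 and 42.5 in CTCF-dRBR, EZH2 86.1, 82.3 and 96.9 against 108, 108 and 102, and EED 35.8, 36.9 and 36.4 against 40.1, 46.1 and 39.8. Each gave an exact permutation p of 0.1, the smallest possible. limma-trend on log2(rescaled TPM + 1) gave log2 fold changes of 0.43 ± 0.12 (SE) for EZH1, 0.27 ± 0.12 for EZH2 and 0.20 ± 0.12 for EED. The median of all genes on this scale was 0.09. This fit passed 0 members at FDR 0.05 and put 3, EZH1, MTF2 and RNF2, at an unadjusted p under 0.05, against 24.8% of all genes.

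**Figure D1:**
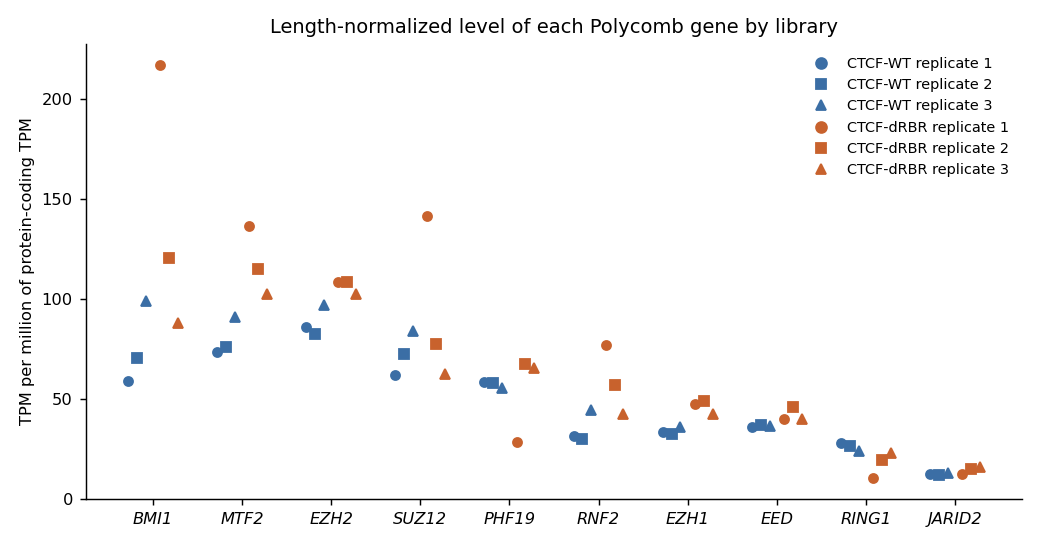
Level of the 10 Polycomb genes in each library as TPM rescaled over protein-coding genes, on a linear axis, ordered by mean, with CTCF-WT in blue, CTCF-dRBR in orange and the replicate number as the symbol. BMI1 spreads from 58.9 to 217, while JARID2 stays between 12.1 and 15.8.

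In TMM-normalized counts, as opposed to the rescaled TPM, the groups overlapped for all 4 catalytic and core subunits of PRC2. All values in the paragraphs that follow are CPM, expected counts scaled by library size after TMM normalization. EZH2, the main H3K27 methyltransferase of dividing cells (chr7:148504349-148581413, GRCh37, minus strand), had 141, 130 and 149 CPM in CTCF-WT and 155, 157 and 148 in CTCF-dRBR. The lowest CTCF-dRBR library fell below the highest CTCF-WT library, and the log2 fold change was 0.13 ± 0.09 (SE, adjusted p = 0.338 by limma-voom). EZH1, the less active methyltransferase that persists in resting cells (chr17:40852293-40897067, minus strand), had 56.7, 54.0 and 54.6 CPM in CTCF-WT and 53.8, 62.2 and 63.7 in CTCF-dRBR. CTCF-dRBR replicates 2 and 3 lay above all CTCF-WT libraries and replicate 1 lay below them, with a log2 fold change of 0.13 ± 0.10 (adjusted p = 0.404).

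EED, the subunit that binds trimethylated H3K27 (chr11:85912254-85989855, plus strand), had 39.4, 37.5 and 35.9 CPM in CTCF-WT and 41.1, 40.9 and 37.3 in CTCF-dRBR. The groups overlapped at a log2 fold change of 0.08 ± 0.10 (adjusted p = 0.596 by limma-voom). A long noncoding RNA on the opposite strand, ENSG00000288809, shares 221 exon bases with EED, and the deposited tables are named as stranded, with no strand setting given in the methods. SUZ12, which holds the core together (chr17:30264026-30328057, plus strand), varied more than any other PRC2 core gene. It had 175, 195 and 217 CPM in CTCF-WT and 371, 182 and 150 in CTCF-dRBR.

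For SUZ12, CTCF-dRBR replicate 1 was far above all other libraries and replicate 3 was the lowest of all. CTCF-WT averaged 196 ± 20.6 CPM (SD, n = 3) and CTCF-dRBR averaged 234 ± 119, and the log2 fold change was 0.14 ± 0.33 (SE, adjusted p = 0.772 by limma-voom). Leaving out CTCF-dRBR replicate 1 gave -0.24 ± 0.13 (adjusted p = 0.250), so the direction rests on that library. The pseudogene SUZ12P, which can share reads with SUZ12, did not overlap between the groups, at 21.4, 20.9 and 24.8 CPM in CTCF-WT and 42.1, 30.6 and 27.6 in CTCF-dRBR. SUZ12P had a log2 fold change of 0.53 ± 0.18 (adjusted p = 0.165). Both genes had fractional expected counts, as RSEM gives where reads match more than 1 place, so the split of reads between them is uncertain.

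Among the accessory subunits, MTF2 had the smallest p of the 10 genes. MTF2, a Polycomb-like protein that binds unmethylated CpG-rich DNA (chr1:93544792-93604636, plus strand), had 134, 136 and 152 CPM in CTCF-WT and 201, 184 and 162 in CTCF-dRBR. Every CTCF-dRBR library lay above every CTCF-WT library. CTCF-WT averaged 141 ± 9.63 CPM (SD, n = 3) and CTCF-dRBR averaged 182 ± 19.6, with a log2 fold change of 0.36 ± 0.11 (SE, unadjusted p = 0.0171 and adjusted p = 0.153 by limma-voom). The exact permutation test of the means gave p = 0.1, the smallest that 3 libraries against 3 allow. Without CTCF-dRBR replicate 1 the log2 fold change was 0.29 ± 0.10 (adjusted p = 0.127).

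JARID2, which recruits PRC2 and is itself methylated by it (chr6:15246300-15522273, plus strand), had 45.1, 42.2 and 42.8 CPM in CTCF-WT and 48.1, 48.8 and 51.2 in CTCF-dRBR. The groups did not overlap and the replicates lay close together, with a log2 fold change of 0.19 ± 0.09 (SE, adjusted p = 0.227 by limma-voom). PHF19, the paralog of MTF2 that binds trimethylated H3K36 (chr9:123617929-123657174, minus strand), had 72.1, 68.3 and 61.4 CPM in CTCF-WT and 29.99, 57.3 and 65.4 in CTCF-dRBR. CTCF-dRBR replicate 1 was far below all the other libraries, while replicate 3 lay within the CTCF-WT range. The log2 fold change of PHF19 was -0.43 ± 0.27 (adjusted p = 0.312), and -0.14 ± 0.10 without CTCF-dRBR replicate 1 (adjusted p = 0.383), a change of more than 1.5 times.

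The groups failed to overlap for MTF2 and JARID2 with CTCF-dRBR above and for RING1 with CTCF-dRBR below. Over all genes tested 20% lay above and 17.5% below in this way, so 2 and 1 of 10 members are close to the background.

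**Figure D2:**
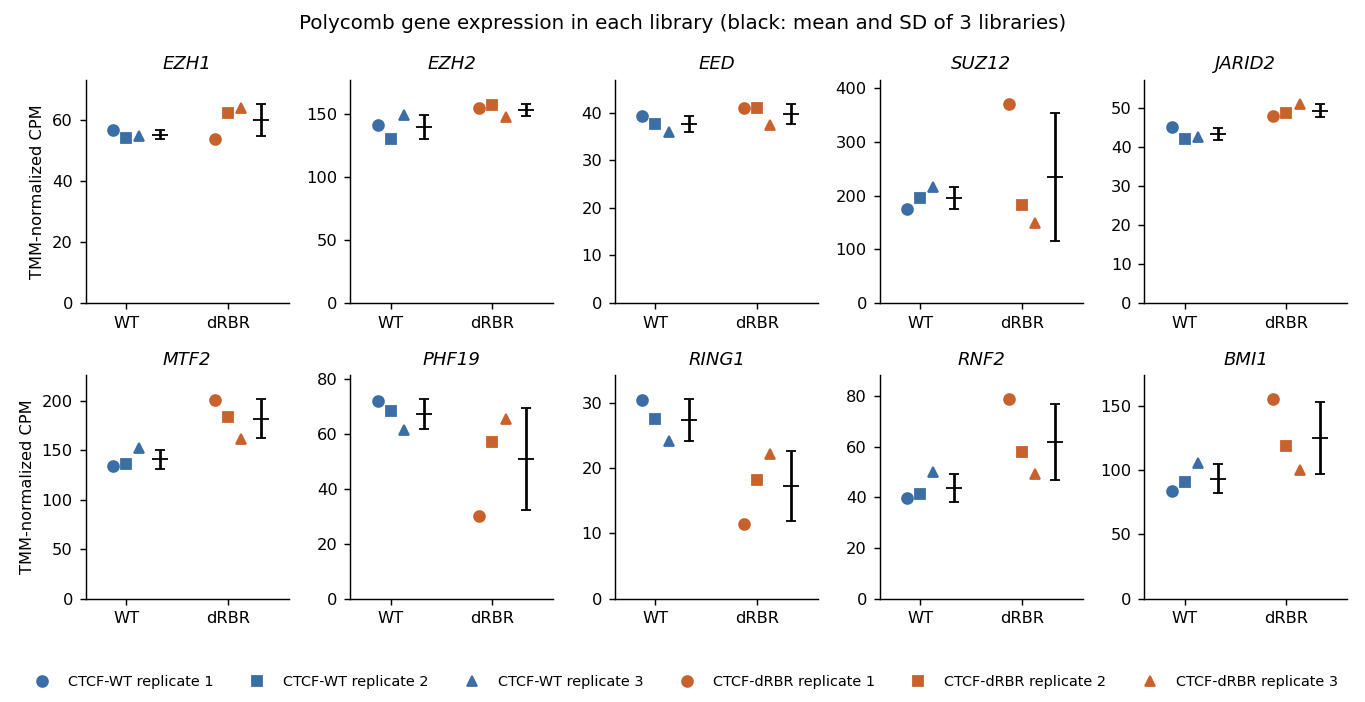
TMM-normalized CPM of each Polycomb gene in the 3 CTCF-WT (blue) and 3 CTCF-dRBR (orange) libraries, 1 panel a gene with its own linear axis from 0, and the mean with SD of each group in black. MTF2 and JARID2 are higher and RING1 lower in all CTCF-dRBR libraries than in any CTCF-WT library, and SUZ12 and PHF19 have CTCF-dRBR replicate 1 far from the rest, at 371 and 29.99 CPM.

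In PRC1, the ligase genes RING1 and RNF2 had log2 fold changes of opposite sign. RING1 (chr6:33176277-33180499, plus strand) had 30.4, 27.5 and 24.1 CPM in CTCF-WT and 11.5, 18.2 and 22.1 in CTCF-dRBR. Every CTCF-dRBR library lay below every CTCF-WT library, with replicate 1 lowest. CTCF-WT averaged 27.3 ± 3.19 CPM (SD, n = 3) and CTCF-dRBR averaged 17.3 ± 5.38, and the log2 fold change was -0.67 ± 0.24 (SE, unadjusted p = 0.0290 and adjusted p = 0.170 by limma-voom). Leaving out CTCF-dRBR replicate 1 gave -0.44 ± 0.14 (adjusted p = 0.103), which is smaller by more than 1.5 times.

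RNF2, also called RING1B and the main H2A ubiquitin ligase in many cells (chr1:185014658-185071735, plus strand), had 39.7, 41.3 and 49.8 CPM in CTCF-WT and 78.6, 57.7 and 49.3 in CTCF-dRBR. CTCF-dRBR replicate 3 overlapped the CTCF-WT range, and replicate 1 was the highest. The log2 fold change was 0.46 ± 0.19 (SE, unadjusted p = 0.0516 and adjusted p = 0.199 by limma-voom), and 0.29 ± 0.14 without CTCF-dRBR replicate 1. BMI1 (chr10:22610028-22620413, plus strand), the PCGF subunit of canonical PRC1 that stimulates the ligase and is known for the repression of CDKN2A, had 83.7, 90.8 and 106 CPM in CTCF-WT. It had 155, 119 and 99.8 CPM in CTCF-dRBR, again with replicate 1 highest and replicate 3 within the CTCF-WT range.

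BMI1 had a log2 fold change of 0.39 ± 0.18 (SE, adjusted p = 0.220 by limma-voom), and 0.23 ± 0.13 without CTCF-dRBR replicate 1. The readthrough gene COMMD3-BMI1 lies on the same strand and shares 1000 exon bases with BMI1, which makes the split of reads uncertain. Its log2 fold change was 0.33 ± 0.16 and that of the neighbor COMMD3 was 0.22 ± 0.11, in the same direction as BMI1.

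RING1 and RNF2 encode the same enzyme activity from messages of unlike base composition, and their coding sequences over the RING finger, the part that holds the ligase, show it. The stretch of 120 bases from the GENCODE transcripts ENST00000374656 and ENST00000367510 is printed below from the GRCh37 reference. It lies at chr6:33177466-33177563 and chr6:33177692-33177713 (exons 3 and 4 of RING1) and at chr1:185060774-185060871 and chr1:185062193-185062214 (exons 3 and 4 of RNF2), all on the plus strand. Capitals mark positions where one gene has G or C and the other A or T.
RING1: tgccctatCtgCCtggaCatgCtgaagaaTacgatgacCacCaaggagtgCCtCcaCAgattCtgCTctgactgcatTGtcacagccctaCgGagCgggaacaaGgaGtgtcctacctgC
RNF2: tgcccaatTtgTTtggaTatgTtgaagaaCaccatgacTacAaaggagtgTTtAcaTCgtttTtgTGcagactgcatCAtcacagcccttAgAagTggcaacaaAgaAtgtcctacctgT
The sequences were identical at 90 of 120 bases (75%). RING1 had G or C against A or T in RNF2 at 20 positions and the reverse held at 4, and 17 of these 24 were the last base of a codon. GC content was 55% in RING1 and 41.7% in RNF2 over the stretch, and 62.1% and 41.8% over the coding sequences.

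Ratios of alternative subunits within a library do not depend on how the libraries are scaled. They can still carry differences between libraries that follow GC content, described below. The first gene of each pair had the lower GC content. It was 37.99% in RNF2 and 61.22% in RING1, and 37.04% in MTF2 and 57.28% in PHF19. For EZH2 and EZH1 it was 40.35% and 49.11%. The part of GC content in the ratios was not tested. The RNF2 to RING1 ratio of TPM was 1.13, 1.13 and 1.85 in CTCF-WT and 7.24, 2.93 and 1.84 in CTCF-dRBR. CTCF-dRBR replicate 3 lay just under the highest CTCF-WT library, and the difference in mean log2 ratio was 1.35 (exact permutation p = 0.2, two-sided). Without CTCF-dRBR replicate 1 it was 0.80.

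The MTF2 to PHF19 ratio was 1.26, 1.31 and 1.64 in CTCF-WT and 4.77, 1.70 and 1.56 in CTCF-dRBR. The difference in mean log2 ratio was 0.74 (exact permutation p = 0.2) and was 0.22 without CTCF-dRBR replicate 1. The EZH2 to EZH1 ratio was 2.58, 2.55 and 2.68 in CTCF-WT and 2.28, 2.23 and 2.41 in CTCF-dRBR, lower in every CTCF-dRBR library. The difference in mean log2 ratio was -0.18 (exact permutation p = 0.1, the smallest possible). The ratio of expected counts, which are not divided by effective gene length, differed by 0.02 with the opposite sign (exact permutation p = 0.9).

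**Figure D3:**
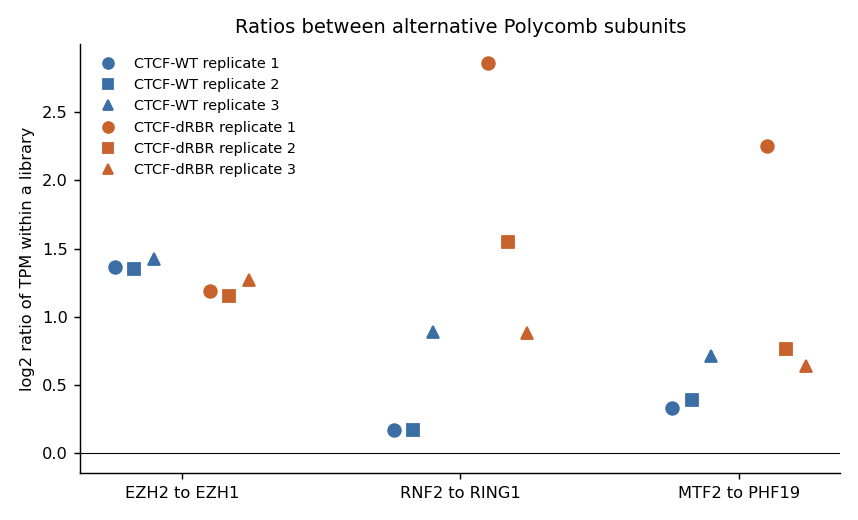
Log2 ratio of TPM within each library for 3 pairs of alternative Polycomb subunits, with CTCF-WT in blue, CTCF-dRBR in orange and the replicate number as the symbol. The EZH2 to EZH1 ratio is lower in all 3 CTCF-dRBR libraries, while the other ratios overlap between the groups and are highest in CTCF-dRBR replicate 1.

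The fold changes over all genes tested followed a trend with GC content, and those of the Polycomb genes are set beside it here. Over genes with a GC content under 40% the median log2 fold change was 0.31, and over genes of 60% or more it was -0.76. Without CTCF-dRBR replicate 1 these medians were 0.17 and -0.35. Spearman's rho between the GC content of a gene and its deviation from the mean of the libraries was 0.709, 0.674 and 0.339 in CTCF-WT replicates 1 to 3 and -0.780, -0.417 and 0.504 in CTCF-dRBR, a description over genes within each library. GC content of the exons of the members ran from 36.4% in EED to 61.2% in RING1.

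MTF2, RNF2 and BMI1, at 37.04%, 37.99% and 39.93% GC, lay above the median log2 fold change of their GC bin by 0.05, 0.15 and 0.08. RING1 at 61.2% and PHF19 at 57.3% lay above theirs by 0.08 and 0.07. In all, 7 of 10 members lay inside the interquartile range of their bin, which by its definition holds 50% of the genes. EED and SUZ12 lay below it. JARID2, at 50.7% GC, lay above it, with a log2 fold change of 0.19. That is 0.45 higher than the bin median of -0.25 and opposite to it in sign. The part of the GC trend in the differences was not tested.

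**Figure D4:**
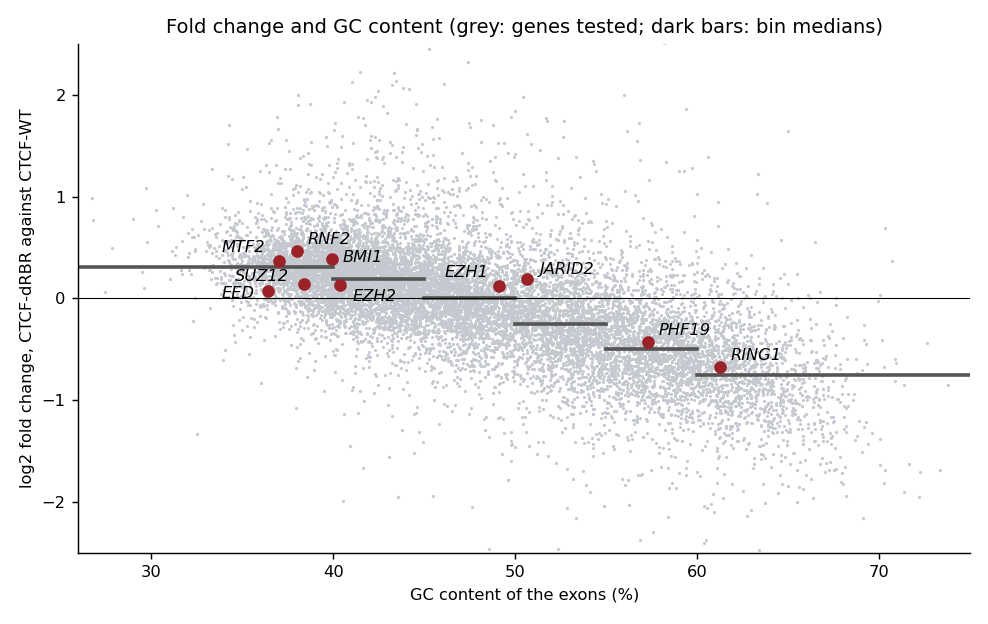
Log2 fold change in CTCF-dRBR against CTCF-WT by limma-voom over the GC content of the exons in percent, for all tested genes with a GC value (grey), with the median of each GC bin (dark bars) and the Polycomb genes in red. The medians go from 0.31 at the left to -0.76 at the right, and JARID2 is the member farthest above its bar; 83 genes lie outside the plotted range.

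With the GC trend taken out of each library by loess, the fold changes shrank or changed sign for all members but EZH1 and JARID2. MTF2 had 0.02 ± 0.09 (SE), RING1 0.03 ± 0.14, PHF19 0.07 ± 0.08, RNF2 0.15 ± 0.08 and BMI1 0.11 ± 0.08, and none of these passed FDR 0.05 by limma-voom. JARID2 had 0.32 ± 0.08 (adjusted p = 0.0542) and EZH1 0.19 ± 0.06 (adjusted p = 0.103), both higher than before. EZH2, EED and SUZ12 were negative, at -0.13 ± 0.11, -0.26 ± 0.14 and -0.18 ± 0.20. In this fit 3.97% of genes passed as higher and 5.27% as lower, and 0 of 10 members passed in either direction. At an unadjusted p under 0.05 there were 2 members, against 31.2% of all genes.

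When CTCF-dRBR replicate 1 was left out as well, a setting chosen after the data were seen, 3 of 10 members passed FDR 0.05 by limma-voom. EZH1 was higher at a log2 fold change of 0.22 ± 0.05 (SE, adjusted p = 0.0329) and JARID2 at 0.27 ± 0.06 (adjusted p = 0.0213). SUZ12 was lower at -0.40 ± 0.07 (adjusted p = 0.0125). In this fit 10.3% of all genes passed as higher and 13.3% as lower, and 39.6% had an unadjusted p under 0.05, which 3 members had. These calls rest on 3 libraries against 2.

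Weights on the libraries (voomWithQualityWeights) gave CTCF-dRBR replicate 1 the lowest weight, 0.0969, and 8 of 10 members then passed FDR 0.05. Replicate 2 of each group had the highest weights, 5.65 in CTCF-WT and 6.19 in CTCF-dRBR. The remaining libraries had 0.472 to 1.26, so the fit leaned on replicate 2 of each group. EZH1, EZH2, JARID2, MTF2, RNF2 and BMI1 were higher and PHF19 and RING1 lower, with log2 fold changes of 0.41 ± 0.05 (SE) for MTF2 and -0.60 ± 0.08 for RING1. The same fit passed 32.5% of all genes as higher and 35.8% as lower, and 71.4% had an unadjusted p under 0.05. On the log2(TPM + 1) scale BMI1 alone passed, where 5.17% of all genes passed as higher and 0.762% as lower and the median gene was at 0.40. On that scale 4 members had an unadjusted p under 0.05, against 28.8% of all genes.

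**Figure D5:**
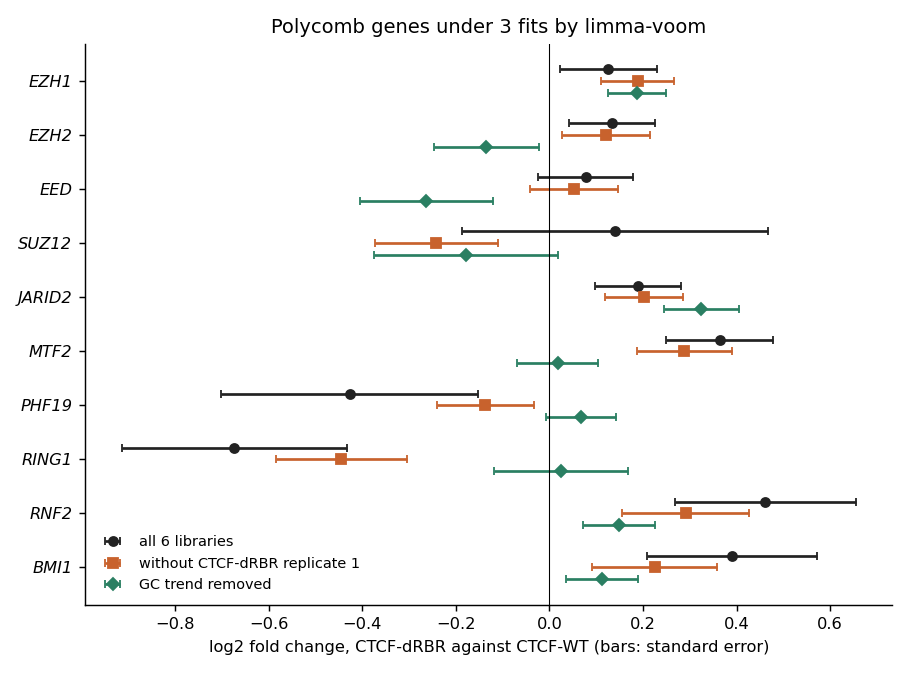
Log2 fold change and standard error of each Polycomb gene in CTCF-dRBR against CTCF-WT by limma-voom, from all 6 libraries (black), without CTCF-dRBR replicate 1 (orange) and with the GC trend removed (green). EZH1, JARID2, MTF2, RNF2 and BMI1 stay above 0 in all 3, SUZ12 is 0.14 in the first and negative in the others, and MTF2 and RING1 come to 0.02 and 0.03 with the GC trend removed.

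Across the 6 libraries, RNF2 and BMI1 had the most similar profiles of the 10 genes, with a root mean square difference of 0.05 between their log2 CPM centered on the mean. EZH1 and JARID2 followed at 0.07, and SUZ12 and RING1 were the farthest apart at 0.82. In CTCF-dRBR replicate 1 the centered values were 0.62 for RNF2, 0.54 for BMI1, 0.85 for SUZ12 and -0.89 for RING1. The part of that library and of GC content in these profiles was not tested. The genes nearest to BMI1 among 10424 protein-coding genes were ATAD2 at 0.0161 and BTBD1 at 0.0162, and those nearest to RNF2 were OSBPL9 at 0.0173 and USP15 at 0.0195. RFFL at 0.0249 and TMEM69 at 0.0296 were nearest to EZH2. For SUZ12 the nearest, CKAP2 at 0.0684 and EIF2S2 at 0.0851, were less close.

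Other subunits of the complexes also passed no test at FDR 0.05 by limma-voom. Among other PRC1 subunits, 24 of 24 were tested and 4 had an unadjusted p under 0.05, all lower in CTCF-dRBR: CBX6, CBX8, L3MBTL2 and CBX2. Over all genes 12.8% were lower at this threshold, so 4 of 24 is close to the background. CBX proteins read trimethylated H3K27 in canonical PRC1, while L3MBTL2 belongs to a variant PRC1. The log2 fold change was -0.997 ± 0.30 (SE) for CBX6, -0.70 ± 0.21 for CBX8, -0.61 ± 0.21 for L3MBTL2 and -0.76 ± 0.31 for CBX2, with adjusted p of 0.149, 0.149, 0.169 and 0.195. DESeq2 called CBX6 (adjusted p = 0.0234) and CBX8 (adjusted p = 0.0254) as lower, as it did 6.14% of all genes. Leaving out CTCF-dRBR replicate 1 gave -0.80 for CBX6, -0.60 for CBX8, -0.40 for L3MBTL2 and -0.43 for CBX2, the last 2 smaller by more than 1.5 times. With the GC trend removed the 4 had -0.46, -0.15, -0.27 and -0.13 in the same order.

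Of other PRC2 subunits, 7 of 8 were tested and 1, C17orf96, was lower at an unadjusted p under 0.05, beside 12.8% of all genes. It had a log2 fold change of -1.01 ± 0.35 (SE, adjusted p = 0.165 by limma-voom). PHF1, the third Polycomb-like paralog beside MTF2 and PHF19, had -0.93 ± 0.40 (adjusted p = 0.204), which became -0.56 when CTCF-dRBR replicate 1 was left out and -0.31 after removal of the GC trend. C10orf12 had -0.23 ± 0.13, and the histone chaperone RBBP4 had 0.11 ± 0.09, or 0.0605 without CTCF-dRBR replicate 1 and -0.10 after removal of the GC trend. The list medians were -0.09 in PRC2 and -0.08 in PRC1. Of the H2A deubiquitinases, H3K27 demethylases and proteins that partner them, 10 of 11 were tested and 0 had an unadjusted p under 0.05, against 25.4% of all genes. USP16, an H2A deubiquitinase, had 0.41 ± 0.20 and BAP1, the H2A deubiquitinase of the PR-DUB complex, had -0.64 ± 0.33. KDM6A, an H3K27 demethylase, had 0.24 ± 0.12, and FOXK1, a transcription factor that binds BAP1, had -0.68 ± 0.32. Without CTCF-dRBR replicate 1 all 4 were smaller by more than 1.5 times, at 0.21 for USP16, -0.30 for BAP1, 0.15 for KDM6A and -0.38 for FOXK1. With the GC trend removed KDM6A turned to -0.11.

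Of 25 textbook Polycomb targets, 5 passed the filter on low counts, and the other 20 had at most 0.31 TPM in any library. CDKN2A, the cell cycle inhibitor that BMI1 is known to repress, averaged 88.4 ± 17.2 CPM (SD, n = 3) in the CTCF-WT libraries and 62.9 ± 12.5 CPM in the CTCF-dRBR libraries, a log2 fold change of -0.47 ± 0.21 (SE, adjusted p = 0.205 by limma-voom). WT1 had 0.26 ± 0.12, CDKN1A -0.48 ± 0.43 and PAX6 0.09 ± 0.13 as log2 fold changes. Leaving out CTCF-dRBR replicate 1 gave -0.0084 for CDKN1A and turned PAX6 to -0.0193, and with the GC trend removed CDKN1A had 0.0396 and CDKN2A -0.0496. GATA6, named after its values were seen, had the only unadjusted p under 0.05 among the 5 at 0.68 ± 0.24 (adjusted p = 0.170) and a mean of 0.862 TPM. Over all genes 12.6% were higher at this threshold. Without CTCF-dRBR replicate 1 GATA6 had 0.48 and WT1 0.26, and with the GC trend removed they had 1.04 and 0.38. Their adjusted p by limma-voom with the GC trend removed was 0.128 and 0.0676. In CPM both lay higher in every CTCF-dRBR library than in any CTCF-WT library, as did 20% of all genes.

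The promoters of the members were searched for 9 motifs because the perturbed protein binds DNA. Windows of 250 bases before to 50 after the start came from RefSeq (GRCh38.p14), 14 for the 10 members of 35116 in all, and both strands were read. The conserved end of the CTCF motif, AGGGGGC or AGGTGGC, was in 3 of 14 member windows, of BMI1 and JARID2, and in 20.04% of all. A longer CTCF motif, which overlaps this end and allows any base at its variable position, was in 0 of 14 and in 1.05% of all, and an NRF1 and a long YY1 motif were in 0 of 14 as well, against 1.24% and 0.85% of all. An E2F-like site, chosen for mention after the counts were seen and spelled TTTGGCGC, TTTCGCGC, TTTCCCGC or TTTGCCGC, was in 5 of 14, in EZH1, EZH2, MTF2, PHF19 and SUZ12, and in 3.31% of all. A GC box, GGGCGG, was in 12 of 14 and in 44.95% of all, and a CCAAT box in 6 of 14 and in 34.61% of all. An ETS site, CCGGAAGT, was in 0 of 14 and in 4.14% of all, and a short YY1 site, AAATGGCG, AAGATGGC or CAAGATGG, which overlaps the long one, was in 2 of 14 and in 4.69% of all. A match describes the letters only. The windows over all genes were not matched to those of the members for GC or CpG content. The part of base composition in these counts was not tested. The windows of the members with the smallest p in each direction are shown, with an E2F-like match in capitals, at chr1:93544590-93544889 for MTF2 and chr6:33176027-33176326 for RING1 (GRCh37, plus strand, by exact match).
MTF2: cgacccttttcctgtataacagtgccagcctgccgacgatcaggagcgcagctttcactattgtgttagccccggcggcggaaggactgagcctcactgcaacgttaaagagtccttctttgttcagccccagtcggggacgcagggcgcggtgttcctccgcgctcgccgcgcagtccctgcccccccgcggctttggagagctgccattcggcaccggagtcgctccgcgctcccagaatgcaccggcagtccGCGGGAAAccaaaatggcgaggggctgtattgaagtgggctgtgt
RING1: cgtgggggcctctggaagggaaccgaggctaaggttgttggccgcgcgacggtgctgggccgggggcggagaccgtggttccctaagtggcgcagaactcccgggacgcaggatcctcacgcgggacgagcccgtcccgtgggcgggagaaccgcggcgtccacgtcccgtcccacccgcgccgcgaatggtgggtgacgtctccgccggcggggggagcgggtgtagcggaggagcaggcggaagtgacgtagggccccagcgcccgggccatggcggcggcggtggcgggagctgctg
GC content was 63.0% with 28 CpG in the MTF2 window and 74.3% with 41 CpG in the RING1 window, which held no E2F-like match.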

How the data were processed

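Total RNA of 3 CTCF-WT and 3 CTCF-dRBR libraries was measured. The authors trimmed reads with Trim Galore (0.6.3), aligned them to hg19 with STAR (2.7.9a) and quantified genes with RSEM (1.3.1). The labels give single-end and the methods paired-end reads. The expected counts as deposited are RSEM estimates without normalization, some of them fractional. In making the TPM values, the authors divided by effective length and scaled each library to one total. Protein-coding genes held 30.2% to 63.2% of the TPM of a library.

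Genes that reached 1 CPM in no library were left out, counts were normalized by TMM (edgeR 4.0.16) and groups were compared by limma-voom (limma 3.58.1, R 4.3.3), two-sided, with Benjamini-Hochberg adjustment over 14044 genes and a threshold of 0.05, as the methods of the study state. Single values were compared by an exact permutation test. The results were also computed by DESeq2 (1.42.0) and the quasi-likelihood test of edgeR, both on rounded counts, with quality weights, robust moderation, limma-trend on the TPM with a pseudocount of 1 or 0.1, further scalings and low-count filters, protein-coding genes only, the replicate block, each library left out and a GC trend removed. GC content came from GENCODE exons on GRCh37 for 97.2% of the genes tested, and its trend in the log2 CPM (prior count 1) was fitted by loess (span 0.5, degree 2). The scripts were tested on simulated data. Replicates of a group differed by more than counting noise, with median chi-square values of 2.64 to 41.2 per gene where noise alone gives 0.455. With 30034505 to 53166735 counts a library, 3 counts equal 0.0564 to 0.0999 CPM, which covers counting error only.

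The members and gene lists were chosen with earlier results of these data known. Named genes were the 10 members, CTCF, the genes that overlap a member or share its reads, the 4 genes with the smallest unadjusted p in each wider list among those with a mean of at least 1 TPM, and the 2 genes nearest in profile to EZH2, SUZ12, RNF2 and BMI1.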

Additional observations from a re-analysis of the deposited data

How the results depend on the processing

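The count of Polycomb genes past FDR 0.05 was 0 by limma-voom, edgeR and DESeq2 and under every other setting tried except voomWithQualityWeights (8), limma-trend on log2(TPM + 1) and on log2(TPM + 0.1) (1 each, BMI1) and GC trend removed without CTCF-dRBR replicate 1 (3). Over all genes the count was 0 except for DESeq2 (1619), quality weights (9583), TPM + 1 (833), TPM + 0.1 (760), GC trend removed (1261) and GC trend removed without CTCF-dRBR replicate 1 (3151), and it ranged from 0 to 535 with 1 library left out, 535 being without CTCF-dRBR replicate 1. Members at an unadjusted p under 0.05 numbered 2, and became 4 with DESeq2, 8 with quality weights, 4 on either TPM scale, 4 with upper quartile and 5 with library size only, and ranged from 0 to 4 with 1 library left out. Leaving out replicate 1 or 2 of CTCF-WT, or replicate 2 of CTCF-dRBR, gave 0, and leaving out replicate 1 or 3 of CTCF-dRBR gave 4.

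Directions reversed for SUZ12 (-0.0873 with quality weights, -0.18 with the GC trend removed, -0.24 without CTCF-dRBR replicate 1, in a range of -0.24 to 0.41 with 1 library left out, and -0.40 with both), PHF19 (0.27 on TPM + 1, 0.28 on TPM + 0.1, 0.0675 with the GC trend removed and 0.10 also without CTCF-dRBR replicate 1), EED (-0.0018 with no filter, -0.26 with the GC trend removed and -0.14 also without that library), EZH2 (-0.13 and -0.0145 in the same 2 GC settings) and RING1 (0.0251 with the GC trend removed). The difference in the EZH2 to EZH1 ratio became 0.0169 from expected counts. The cause of these changes was not tested. TPM + 1, TPM + 0.1 and no filter moved the median of all genes to 0.40, 0.54 and 0.19, so on these scales log2 fold changes are read relative to that shift.

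Same-numbered libraries of the groups did not deviate together (correlations of -0.341, 0.0993 and -0.471). The libraries also differ along GC content, so these correlations cannot show whether same-numbered libraries were prepared together. With the replicate block 0 members had an unadjusted p under 0.05 and 0 genes passed FDR 0.05, with 1423 genes at an unadjusted p under 0.05. Differences in the ratios with 1 library left out ranged from -0.21 to -0.15 for EZH2 to EZH1, from 0.80 to 1.79 for RNF2 to RING1 and from 0.22 to 1.03 for MTF2 to PHF19.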
